A study of Mus musculus with 18 samples.

Results

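BMAL1 binding sites that were called in mouse kidney but in neither liver nor heart, and that lie at the boundary of a gene, are described here. They were chosen by position alone: a peak of the kidney list was taken when it shared not even 1 bp with a liver or heart peak and a gene of any biotype started or ended no more than 1 kb from its centre. Of the 4034 kidney peaks, 2327 met the first condition, and 885 of these met both. The 3 tissues together gave 11366 peaks, 4813 of them in liver and 2519 in heart. All 885 are therefore absent from the other 2 lists by construction, and that absence is not a finding.

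The study measured where BMAL1 binds DNA in mouse liver, kidney and heart with ChIP-seq, the sequencing of immunoprecipitated chromatin. All tissues came from wild-type C57BL/6 mice aged 3 to 6 months, with no transgene or treatment, kept on 12 h of light and 12 h of dark and sampled at zeitgeber time 6, which is 6 h after lights on. Each tissue had 3 ChIP and 3 input libraries, 18 in all, from 3 mice that each gave all the tissues. Each deposited list came from all libraries of a tissue pooled, so no value per animal exists, the depth is unknown, and the tests below take peaks or genes, not mice, as their units. Whole organs were used, so cell types within the kidney cannot be told apart, and the lists hold no expression against which the labelled tissue could be checked. For the heart input libraries 1 label, the source, gives kidney where the titles give heart. Because of this, results were also computed without the heart list, which made 1018 peaks kidney-only boundary peaks, 133 more than with it.

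BMAL1 is a basic helix-loop-helix transcription factor that pairs with CLOCK and activates transcription in the daytime of the mouse. The pair recognises the E-box CACGTG, a palindrome that reads the same on both strands, and drives Per and Cry genes, whose proteins feed back on it, as well as outputs such as Dbp and Tef. In kidney the clock is known to act on the transport of salt and water by the nephron. A gene boundary is either the start, where the promoter lies, or the far end of the transcribed region.

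The sequences that follow come from the readable parts of the highest-scoring sites. They are shown because the E-box is the element that the results on sequence turn on. They come from RefSeq promoter windows of GRCm38.p6, which reach from 250 bases before to 50 bases after a start and are 300 bases long, and they are written 5′ to 3′ on the strand of the named gene with CACGTG in capitals. The first 8 sites are the 8 highest-scoring members with an E-box. For Atp6v0b, Bap1, Gm32392, Pbrm1 and Gm38485 only 30 bases around the E-box are given.
Slc51a, chr16:32487926-32488113, minus strand: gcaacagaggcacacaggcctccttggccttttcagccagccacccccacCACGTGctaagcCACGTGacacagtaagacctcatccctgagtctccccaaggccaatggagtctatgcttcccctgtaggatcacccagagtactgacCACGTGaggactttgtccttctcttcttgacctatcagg
Ifi30, chr8:70766715-70766902, minus strand: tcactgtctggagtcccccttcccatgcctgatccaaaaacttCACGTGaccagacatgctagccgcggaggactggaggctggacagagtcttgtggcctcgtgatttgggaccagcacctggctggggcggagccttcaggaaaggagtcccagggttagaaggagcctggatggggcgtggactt
Dnpep, chr1:75317713-75317887, minus strand: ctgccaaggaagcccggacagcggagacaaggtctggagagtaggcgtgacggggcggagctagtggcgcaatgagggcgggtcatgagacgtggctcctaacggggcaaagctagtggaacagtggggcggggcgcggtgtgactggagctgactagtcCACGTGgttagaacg
Atp6v0b, chr4:117887339-117887368, minus strand: ggtCACGTGgggtcggcgcatCACGTGcgc
Bap1, chr14:31251334-31251363, plus strand: ccccgccctccgCACGTGcgcgccctcgcc
Gm32392, chr9:57606319-57606348, plus strand: agaagcctgaacCACGTGcctgctcctcac
Pbrm1, chr14:31018991-31019020, plus strand: cttctcgggcgcCACGTGcgaactggaact
Gm38485, chr10:42274068-42274097, minus strand: aggcggggttgtCACGTGtcggggactccg

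Other high-scoring sites held no CACGTG in the readable sequence. Both examples below were readable over all 188 bases of the peak and are shown as the contrast to the sites above.
Cers5, chr15:99772515-99772702, minus strand: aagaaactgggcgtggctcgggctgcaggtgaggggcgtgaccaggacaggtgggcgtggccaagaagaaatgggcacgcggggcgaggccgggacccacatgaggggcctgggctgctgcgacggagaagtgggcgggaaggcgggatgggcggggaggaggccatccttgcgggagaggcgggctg
Smagp, chr15:100636963-100637150, minus strand: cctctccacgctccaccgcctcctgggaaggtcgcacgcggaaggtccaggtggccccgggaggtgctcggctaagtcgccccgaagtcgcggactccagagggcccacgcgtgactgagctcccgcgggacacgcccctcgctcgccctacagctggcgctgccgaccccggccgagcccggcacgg

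The authors' peak score, a whole number whose definition is not given in the sources used here, described how the sites ranked within the kidney list. The 885 sites had scores from 14, the lowest in the list, to 117. Their median was 24 (95% interval of the median 23 to 25), with lower and upper quartiles of 19 and 35. The best of them ranked 132 in the kidney list, and 13 were among its top 403 peaks, the highest-scoring 10%. Of the 885, 340 (38.4%) ranked above the middle of the kidney list, with tied scores ordered by chromosome and position. They were thus mostly low-scoring sites. The 926 kidney boundary peaks that overlapped a liver or heart peak had a median score of 50, a range of 14 to 304 and 240 peaks in the top 403. The 1442 kidney-only peaks away from boundaries had a median of 21. Scores bear on which peaks a list holds, so they are not independent of the choice of the sites and were not tested. Binding confined to kidney and a weaker site that fell below the limit elsewhere cannot be told apart in these files.

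**Figure D1:**
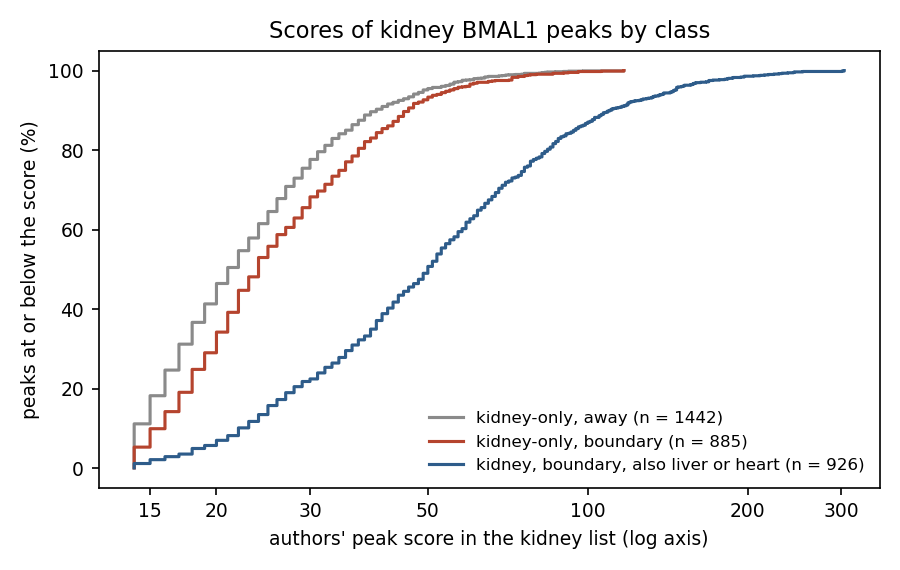
Cumulative distribution of the authors' peak score (log axis) for the kidney-only boundary peaks (n = 885), the kidney-only peaks away from boundaries (n = 1442) and the kidney boundary peaks also found in liver or heart (n = 926). The medians are 24, 21 and 50, and the curve of the shared peaks lies to the right of both kidney-only curves.

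The highest-scoring site (score 117, chr15:66969684-66969871) lay 130 bp from an end of the lncRNA gene Gm2895 and within 1 kb of Ndrg1, a gene known for its response to hypoxia and cell stress. Next came Gstt2, a glutathione S-transferase, with a score of 106 (chr10:75837407-75837594). A site with a score of 96 lay between Phf7, which encodes a histone-binding protein, and Bap1, which encodes a deubiquitinase of histone H2A. Its centre was 7 bp downstream of the start of Phf7. The lncRNA gene Gm30745 had a site of the same score at its far end. A site with a score of 92 (chr11:69681955-69682142) had ends of 4 genes within 1 kb, namely Tnfsf13os, Tnfsf13, Tnfsfm13 and the SUMO protease gene Senp3. Trim65 followed with 90.

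Of the fixed lists of kidney genes, only Lrp2 had a site among the 20 highest scores. Lrp2 encodes megalin, the endocytic receptor of the proximal tubule, and its site (score 86, chr2:69586151-69586338) was centred 216 bp upstream of the start. An equal score of 86 was given to the site between Kat8, a histone acetyltransferase gene, and Prss8, which encodes prostasin, a protease known to activate the epithelial sodium channel. Atp6v0b encodes a subunit of the proton pump of acidic organelles, and its site (score 80) lay 33 bp upstream of the start. Slc51a encodes a subunit of a transporter of bile acids and steroids, and its site (score 72) lay 141 bp upstream.

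The remaining sites of the top 20 scored between 72 and 78. They lay at Gm5148, the ceramide synthase gene Cers5, the lysosomal thiol reductase gene Ifi30, the TGF-beta signalling gene Smad3, the adhesion protein gene Smagp, the COPII coat gene Sec31a, Gm37915, Natd1, 9530018F02Rik and Tef. Of the 20, 11 could be read for the E-box and 4 held it.

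Most sites had a single gene nearby. Ends of exactly 1 gene lay within 1 kb at 656 of the 885 (74.1%), of 2 genes at 214 (24.2%), of 3 at 13 and of 4 at 2. The share with 2 or more genes was 25.9% (229 of 885, exact Clopper-Pearson 95% interval 23.0 to 28.9%). It was 27.9% at the kidney boundary peaks found in another tissue, 23.1% at liver-only and 22.7% at heart-only boundary peaks. None of these 3 differences passed a two-sided Fisher's exact test after Benjamini-Hochberg adjustment (adjusted p = 0.368, 0.329 and 0.329). Of the 214 sites with 2 genes, 115 had the starts of both genes on opposite strands nearby, and 12 had the end of a gene and the start of another on the same strand. For 77 of the 214 the strand of at least 1 gene was not known here.

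At 48 sites both genes of such an opposite-strand pair of starts were protein-coding. Phf7 and Bap1 led with 96, followed by Gnl3, which encodes nucleostemin, and Pbrm1, a subunit of a chromatin remodelling complex, with 60. Next were Snx5 and Mgme1 with 52. Of the 36 such sites that could be read, 12 held CACGTG (33.3%, exact interval 18.6 to 51.0%), an interval that includes the share over all readable sites given below.

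The nearest gene was protein-coding at 709 sites (80.1%) and a lncRNA at 148 (16.7%). Among all annotated genes 43.8% are protein-coding and 25.5% lncRNA genes. Small RNA genes were nearest at few sites, with 7 miRNA genes (0.791% of the sites, against 2.46% of all genes), 3 snoRNA genes (0.339% against 2.68%), 3 snRNA genes (0.339% against 2.01%), 2 tRNA genes and 1 each of the RNA components of RNase MRP (Rmrp) and RNase P (Rpph1). A protein-coding gene lay within 1 kb at 761 sites (86.0%). In all, 1111 genes had an end at one of these sites, of which 853 were protein-coding. That is 3.9% of the 21887 protein-coding genes, the background against which the gene lists below are to be read. For the kidney boundary peaks that overlap a liver or heart peak, called shared below, the corresponding background is 4.27% (934 genes). On the X chromosome lay 8 sites and on Y none, counts that were not set against those of other peaks or genes.

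Where the strand was known, the sites lay at starts far more often than at far ends. Of the 885, 659 had a start within 1 kb, 50 had only a far end, and 176 could not be assigned. Among the 709 assigned sites 92.9% were at a start (exact interval 90.8 to 94.7%). In the liver-only boundary peaks this share was 85.5% (466 of 545), 7.44 percentage points lower, a difference that passed the two-sided Fisher's exact test (odds ratio 2.23, adjusted p = 6.4e-05). The heart-only boundary peaks had 90.6% (345 of 381), and this difference did not pass (adjusted p = 0.195 by the same exact test). The kidney boundary peaks found elsewhere had 96.3% (720 of 748), and the kidney-only share minus this one was -3.31 points (odds ratio 0.513, adjusted p = 0.00777 by the same exact test). With both classes held to scores of 19 to 35, this last difference was -1.65 points and did not pass (p = 0.554 by the same exact test). Without the heart list it was -2.57 points and missed the threshold (adjusted p = 0.0518 by the same exact test).

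Centres of the sites at a start gathered around it. The rule admits only centres up to 1 kb on either side of a gene end. A median near the start and a near-even upstream share therefore follow in part from that choice. The median centre was 6 bp downstream of the start, with quartiles at -99 bp (upstream) and 170 bp (downstream). Upstream centres made up 317 of the 659 (48.1%, exact interval 44.2 to 52.0%). Within 200 bp of the start lay 411 (62.4%), against 63.1% of the kidney boundary peaks found elsewhere, 49.4% of the liver-only and 49.0% of the heart-only boundary peaks. Liver peaks are 242 bp and heart peaks 198 bp wide in their lists, against 188 bp in kidney, and distances were measured from centres. These shares within 200 bp were not tested.

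**Figure D2:**
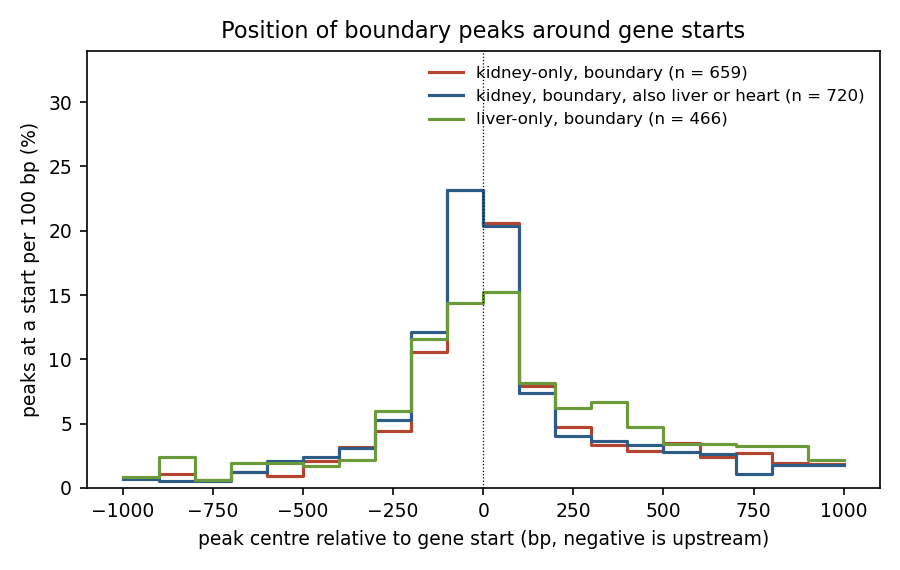
Share of peaks per 100 bp by the distance of the peak centre from the gene start (bp, upstream negative), for kidney-only boundary peaks (n = 659), kidney boundary peaks also in liver or heart (n = 720) and liver-only boundary peaks (n = 466). Of these classes, 62.4%, 63.1% and 49.4% lie within 200 bp of the start.

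The E-box could be sought only where a peak overlaps a promoter window. A peak counted as readable when at least 94 of its bases did, which held for 392 of the 885 sites, so the shares that follow describe sites close to a start. CACGTG lay in 95 of the 392 (24.2%, exact interval 20.1 to 28.8%). Over all 32851 promoter windows 7.15% hold it in 300 bases, and 4.81% of promoter pieces of 188 bases do. Among windows of at least 60% G and C, which these sites resemble more, 10.8% of whole windows and 7.49% of such pieces hold it. The readable sites had a median of 69.1% G and C, against 52.7% over all windows.

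The kidney boundary peaks found in another tissue carried the E-box far more often. It lay in 218 of 443 of them (49.2%, exact interval 44.5 to 54.0%), a difference of -25 points for the kidney-only sites (odds ratio 0.33 and, by the exact test of Fisher, adjusted p = 2.77e-13). Within scores of 19 to 35 the shares were 21.9% (46 of 210) and 38.5% (35 of 91), a difference of -16.6 points that also passed (odds ratio 0.449, adjusted p = 0.00888 by the same exact test). Differences from the other single-tissue classes were smaller. Liver-only boundary peaks had 29.2% (66 of 226) and heart-only boundary peaks 18.3% (26 of 142), and neither difference passed (both adjusted p = 0.245 by the same exact test). The 55 readable kidney-only peaks whose centre lay away from boundaries had 23.6% (adjusted p = 1.0 by the same exact test), with an interval of 13.2 to 37.0% that leaves room for a difference in either direction. These 3 differences moved with the choice of peaks. From -4.97, 5.92 and 0.598 points they went to -14.5, 1.21 and -8.85 points with wholly readable peaks, where none passed (adjusted p = 0.115, 1.0 and 0.518 by the same exact test). With only the kidney peaks ranked above the middle of their list, the difference from liver-only peaks was 1.92 points and from heart-only peaks 12.9 points. The second passed (adjusted p = 0.905 and 0.0141 by the same exact test), but liver and heart peaks of all scores were kept there. When every list was cut to its higher-scoring part, the differences were -6.38 and 4.29 points, and neither passed (adjusted p = 0.566 and 0.691 by the same exact test). Without the heart list the share in the kidney-only sites was 26.8%.

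**Figure D3:**
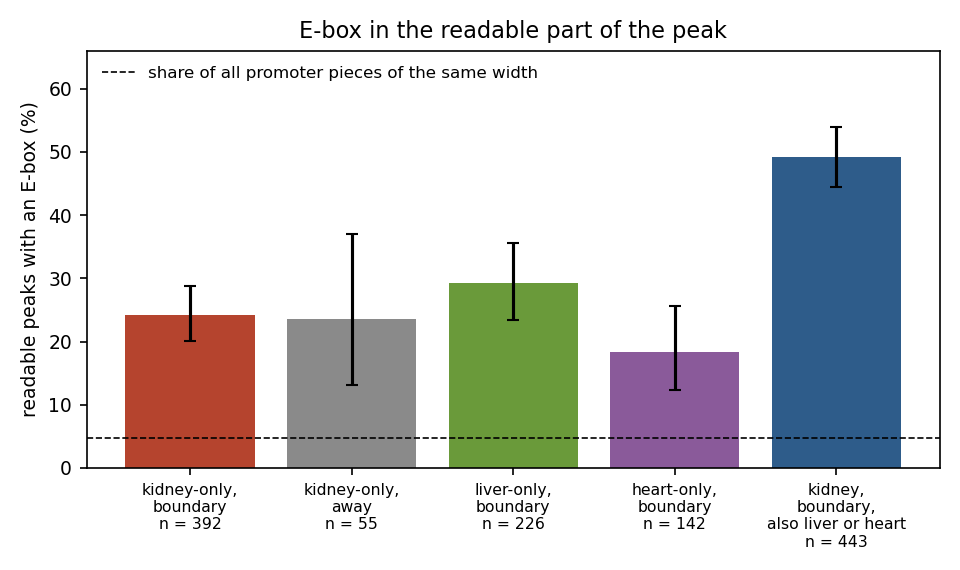
Share of readable peaks that hold the E-box, with exact Clopper-Pearson 95% intervals as error bars and the number of readable peaks under each bar; the dashed line is the 4.81% of promoter pieces of 188 bases. The kidney-only boundary peaks (24.2%) lie below the kidney boundary peaks also found in liver or heart (49.2%), and their interval overlaps those of the other single-tissue classes.

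The share of E-boxes went with the score within the kidney-only sites. It was 12.8% (11 of 86) at scores of 14 to 19, 17.9% (17 of 95) up to 24, 28.1% (27 of 96) up to 35 and 34.8% (40 of 115) above 35. In the boundary peaks found elsewhere it was 15% (3 of 20), 42.9% (12 of 28), 37.3% (22 of 59) and 53.9% (181 of 336) over the same ranges. In the highest range the intervals of the kidney-only sites and of the shared peaks did not overlap. That range has no upper limit, and its scores reach 117 in the kidney-only sites and 304 in the shared peaks. In the lowest range only 20 shared peaks were readable, and no difference could be seen at that number. More than 1 E-box was present in 6 of the 392 readable sites (1.53%), against 43 of the 443 shared peaks (9.71%). Slc51a, with 3 copies, and Atp6v0b, with 2 copies within 30 bases, are printed above.

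**Figure D4:**
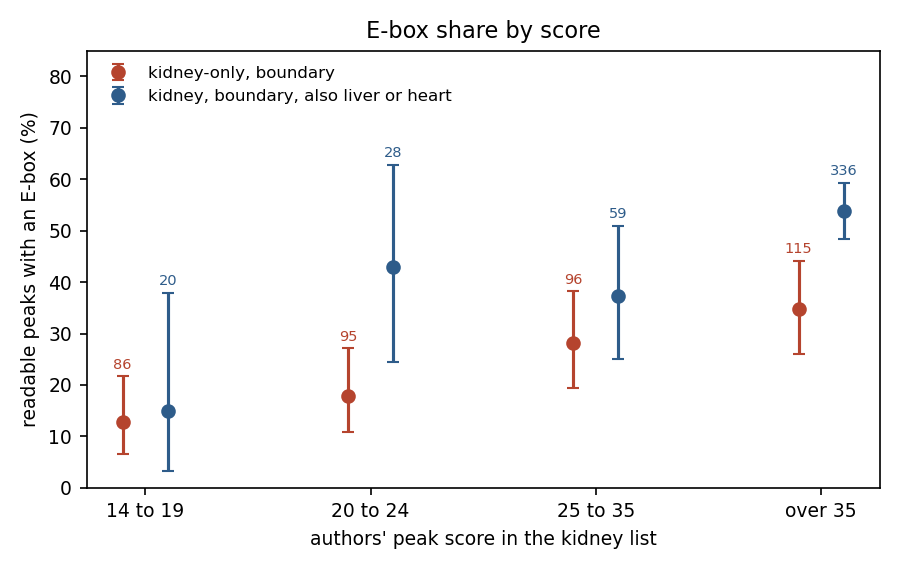
Share of readable peaks with the E-box in 4 ranges of the authors' score, for kidney-only boundary peaks and kidney boundary peaks also found in liver or heart; bars are exact 95% intervals and small numbers give the readable peaks. The kidney-only share goes from 12.8% at scores up to 19 to 34.8% above 35, where the shared peaks have 53.9%.

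Where CACGTG was present it lay near the middle of the peak. Of the 102 copies in readable kidney-only sites, 58 (56.9%, exact interval 46.7 to 66.6%) were within 25 bp of the centre, with a median distance of 22 bp. The 267 copies in the shared peaks were placed alike, with 57.7% within 25 bp and the same median of 22 bp. In the whole promoter windows next to the sites, 135 of 639 (21.1%) held CACGTG, against 272 of 710 (38.3%) next to the shared peaks.

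The gene lists, which are described only by their counts, were read against the 3.9% of all protein-coding genes with such a site. Of 26 circadian clock genes and outputs only Tef had a kidney-only boundary peak, whereas 16 of the 26 (61.5%) had a kidney boundary peak that was also found in liver or heart, against 4.27% of all protein-coding genes. Tef encodes a leucine-zipper transcription factor under direct clock control. Its kidney-only site (score 72, chr15:81803001-81803188) lay 422 bp downstream of a start, 277 bp from a liver peak and 263 bp from a heart peak, and the gene also had a peak common to all 3 tissues.

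Nephron and podocyte markers gave 4 of 26 genes (15.4%, exact interval 4.36 to 34.9%), and none of the 26 had a kidney boundary peak shared with another tissue. Beside Lrp2 (score 86) these were Cdh16, Cyp24a1 and Aqp3. Cdh16, the kidney cadherin of tubule cells, had a score of 27 at a site 2 bp from the start of its neighbour Gm51588. Cyp24a1, the enzyme that inactivates active vitamin D in the proximal tubule, had 22. Aqp3, a water channel of the basolateral membrane of the collecting duct, had 19 at a site 574 bp upstream of its start. The lower bound of the interval, 4.36%, lies close to the background with no allowance for the number of lists. Only Lrp2 is left when kidney peaks ranked below the middle of their list are dropped. Of 25 transcription factors of the kidney lineage none had such a site, which allows a share of up to 13.7%. Among 38 genes of salt, water and acid-base transport only Car4, a membrane-bound carbonic anhydrase, did (score 17).

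Solute carriers were the list with the most members. Of 375 genes 20 had a kidney-only site (5.33%, exact interval 3.29 to 8.12%), and 28 had a shared one (7.47%). After Slc51a the highest scores were those of the mitochondrial carriers Slc25a10 (dicarboxylates, 54), Slc25a32 (folate, 50) and Slc25a15 (ornithine, 38), and of the fructose transporter Slc2a5 (35). The readable site at Slc25a15 held CACGTG.

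In the lists of mitochondrial genes the kidney-only sites had scores of 14 to 43, against a median of 24 over all 885 sites. Among subunits of the respiratory chain and ATP synthase, 8 of 89 had a kidney-only site (8.99%, exact interval 3.96 to 16.9%, background 3.9%) and 1 of 89 a shared site (1.12%, background 4.27%). The 5 with the highest scores were Atp5d of ATP synthase (37), Ndufa13 of complex I (24), Cycs, which is cytochrome c (23), the supercomplex factor Cox7a2l (22) and Ndufb6 of complex I (21). Mitochondrial ribosomal proteins had 6 of 78 (7.69%) and 1 with a shared site (1.28%), led by Mrpl54 (43), Mrps18b (36), Mrpl12 (27), Mrpl30 (19) and Mrpl34 (15). Some sites lie beside another gene whose start is as near, such as Ppp1r10 next to Mrps18b. With only the kidney peaks ranked above the middle of their list, 1 of the 8 respiratory genes and 2 of the 6 mitochondrial ribosomal genes are left. Of all 885 sites that setting keeps 340 (38.4%). The difference between kidney-only and shared counts was not tested.

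Housekeeping lists lay around the background in their kidney-only share. Cytosolic ribosomal proteins had 5 of 82 (6.1%), namely Rpl10a and Rpl13a (45 each), Rplp2, Rps20 and Rpl41. Translation initiation factors and tRNA synthetases had 5 of 89 (5.62%), namely Eif1b, Eif2b5, Eif4h, Eif6 and Iars. Heat shock and DnaJ chaperones had 5 of 82 (6.1%), with Dnajc13 (47), Hsp90aa1 (44), Hsph1 (38), Dnajb1 (21) and Hspb11. The site near the start of Hsph1, a helper of the chaperone Hsp70, held an E-box. Across the 17 lists 8 of the 42 readable sites did (19.0%, exact interval 8.6 to 34.1%), against 24.2% of all readable kidney-only sites. Proteasome subunits had 2 of 51 (Psmd14 and Psmc5), and F-box proteins and ubiquitin-specific proteases 3 of 134 (Usp31, Usp48 and Fbxo6).

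Kidney-only shares of regulatory and trafficking lists were similar. Zinc finger protein genes had 17 of 465 (3.66%), led by Zfp28 and Zfp78, which share a site of score 60, and Zbtb14 (55), Zbtb7a and Zbtb43. MAP kinase cascade genes and dual-specificity phosphatases had 5 of 68 (7.35%), namely Map3k9 (61), Map3k14 (35), Dusp9 (33), Dusp18 and Map2k3. Rab GTPases and vesicle coat genes had 5 of 131 (3.82%), with Sec31a (74), Rab31 (33), Sec63, Sec16a and Vps26b. Transmembrane proteins of the Tmem series had 13 of 238 (5.46%), led by Tmem126a (44), Tmem116, Tmem45b, Tmem41a and Tmem104. Among 103 histone genes only H1f7 had a site (0.971%). Shared sites lay at 3.23%, 10.3%, 6.87%, 4.2% and 1.94% of the genes of these lists in the same order. Over the 17 lists the lower interval bound of the kidney-only share exceeded 3.9% in the nephron list (4.36%) and the respiratory chain list (3.96%) only. The intervals make no allowance for the number of lists, which were chosen with earlier results of these data known. No list was tested against the background.

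**Figure D5:**
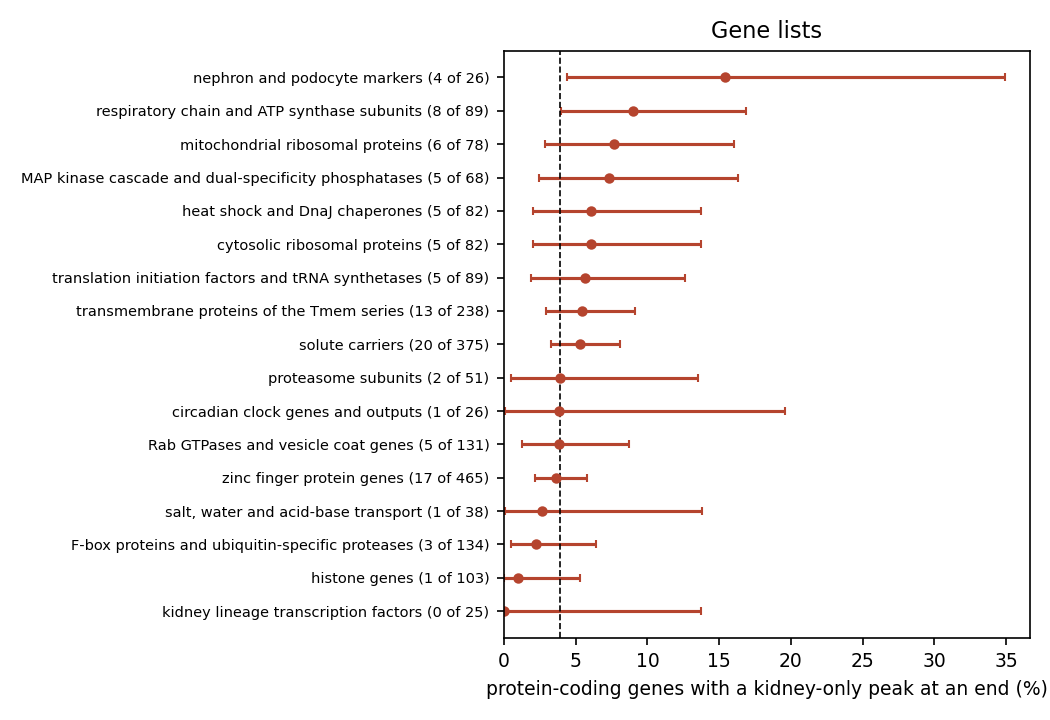
Share of the genes of each fixed list with a kidney-only boundary peak (points, with exact Clopper-Pearson 95% intervals), with the 3.9% of all protein-coding genes as the dashed line. Nephron and podocyte markers have the highest share, 15.4% of 26 genes. All intervals but 2 include the line, with no allowance for the number of lists.

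A kidney-only site did not mean that its gene lacked BMAL1 in the other tissues. Of the 1111 genes, 313 (28.2%, exact interval 25.5 to 30.9%) had a liver or heart peak elsewhere, inside the gene or within 10 kb. The share was 28.9% for the genes of liver-only boundary peaks, 30.4% for those of heart-only and 28.7% for those of shared kidney boundary peaks. Each class counted peaks of the tissues other than its own, from lists of unlike size (4813 in liver, 4034 in kidney and 2519 in heart). None of the 3 differences passed Fisher's exact test (adjusted p = 0.817 for each). Of all protein-coding genes 24.0% have such a liver or heart peak, against 29.2% (249 of 853) of those with a kidney-only site, whose median length is 23.1 kb against 17.2 kb. The part of gene length in this was not tested. A peak common to all 3 tissues lay at a gene of 27 of the 885 sites, a count that was not set against other peaks or genes. Those with the highest scores were at Gstt2 (106), the Tnfsf13os group (92), Tef (72), the chromatin gene Mbd3 (65), Gm38485 (56) and Ran (55), a GTPase of nuclear transport.

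Distances to the nearest peak of another tissue had a median of 52.7 kb, and 139 sites (15.7%) had a liver or heart peak within 10 kb. These distances were not set against those of other peaks or of gene ends. For 39 sites (4.41%) the gap was at most 500 bp and for 58 (6.55%) at most 1 kb, so a small part of the sites adjoins binding in another tissue. The closest were Tanc2 (score 27), 10 bp from a liver peak and 120 bp from a heart peak, Krr1 (score 21), 18 bp from a liver peak, and the site of Gm46922 and Hip1r (score 17), 29 bp from a liver peak. At Ran the gaps were 215 bp to liver and 291 bp to heart.

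More than 1 kidney-only boundary peak was found at 20 of the 1111 genes, a count that was not set against other classes of peaks. The sites with scores of 62 and 35 both lay within 1 kb of Setd5 and Gt(ROSA)26Sor, the locus widely used for knock-in alleles. Zfp78 had sites of 60 and 21. Max, the partner of MYC proteins at E-boxes, had a site of 40 at 170 bp upstream of its start and a site of 27 at its far end. Sp5 had sites of 47 at its far end and 18 upstream of its start, and the antisense gene Rap1gapos had sites of 47 and 17.

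The limit of 1 kb separated sites of like score. Just inside it were A330001L22Rik at 995 bp (score 29), Dcdc2a at 992 bp (score 16) and Id2 at 989 bp (score 20). Just outside were sites near Elp6 at 1004 bp (score 18), Zdhhc14 at 1007 bp (score 24) and Rpl30-ps7 at 1017 bp (score 20). The 885 sites were 38.0% of all kidney-only peaks (exact interval 36.1 to 40.0%). The same rule gave 709 of the 3199 liver-only peaks (22.2%) and 497 of the 1637 heart-only peaks (30.4%). These shares depend on the boundary rule that chose the sites and were not tested.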

How the data were processed

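For each of liver, kidney and heart the authors deposited 1 peak list, called on the 3 ChIP and 3 input libraries pooled, per the series' design text. The submitters' processing notes name Bowtie2, SAMtools, HOMER and mm10, with no role. The deposited score of each peak is the authors' value and was used only to rank peaks within a list. Chromatin fixed in 1% formaldehyde was precipitated with a chicken antibody against BMAL1, 10 ng entered each library, amplification took 16 cycles and reads were 75 bp long, per the labels' protocols.

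Gene ends came from RefSeq GRCm38.p6 (49943 genes, 21887 protein-coding). Strand and sequence came from 32851 promoter windows of 27025 genes, 17492 of them protein-coding. All genes of the 17 lists matched a symbol. CACGTG was searched on both strands. The E-box comparison was planned for whole peaks and was made in the part of a peak inside promoter windows. The 95% intervals of shares (exact, Clopper-Pearson) reflect counting error alone. Differences were tested with two-sided Fisher's exact tests, Benjamini-Hochberg adjusted within each family at 0.05, in Python 3.11.15 with scipy 1.17.1, and tested on simulated data. Peaks of the same gene or promoter are not independent.

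Members and gene lists were chosen with earlier results of these data known. Named were the 20 highest scores, the 5 highest per list, the 8 highest with an E-box, 6 with a common peak, genes with several members, and the 3 nearest to another tissue and to either side of the 1 kb limit. Snx5 and Mgme1, Ppp1r10, Rmrp and Rpph1 were named after their values were seen. Alternatives changed the overlap rule, the window, the biotypes, the score limit, the motif and the distance. Coordinates count from 1.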

Additional observations from a re-analysis of the deposited data

How the results depend on the processing

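No paired analysis was possible because each peak list pools the replicates, and for the same reason no animal could be left out. Settings on scores within 19 to 35, without the heart list, on the central part of peaks and on wholly readable peaks were chosen after seeing the data. The difference in E-box share between kidney-only and shared boundary peaks passed under every setting tried, as did the excess at starts over liver-only boundary peaks. The excess of shared peaks at starts was the least firm: the difference was -1.65 points within scores of 19 to 35 (p = 0.554), -2.57 without the heart list (adjusted p = 0.0518), -0.314 with the higher-scoring part of the kidney list only (adjusted p = 0.842), and turned to 0.1 with the higher-scoring part of every list (adjusted p = 1.0), all by Fisher's exact test.

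With the higher-scoring part of every list the sites numbered 370, 43.6% of kidney-only peaks, with a median score of 38, 43 genes of the lists, 96.7% at starts, an E-box in 33.0% and another peak at 20.6% of genes. Differences from heart-only peaks were then 1.67 points at starts (adjusted p = 0.558) and 4.29 points for the E-box (adjusted p = 0.691), both by Fisher's exact test. With the higher-scoring part of the kidney list only, the sites numbered 340 (45.2%), with a median of 38 and 40 list genes. The share at starts was 96.4% and that with an E-box 32.4%. Here the differences from heart-only peaks became 5.26 points at starts (adjusted p = 0.0122) and 12.9 points for the E-box (adjusted p = 0.0141), both by Fisher's exact test. There the difference in peaks elsewhere turned to 10.6 points against liver-only (adjusted p = 6.02e-05) and 6.64 against heart-only genes (adjusted p = 0.0236 by the same exact test). In that setting the liver-only and heart-only classes met a shortened kidney list, and its part in this was not tested.

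A window of 5 kb gave 1393 sites (59.9%), 178 list genes, 42.9% with several genes (differences of 4.9, 8.37 and -6.3 points from liver-only, heart-only and shared peaks; adjusted p = 0.00799, 0.000302 and 0.00198 by the same exact test), and 87.5% at starts (6.47 points above heart-only, adjusted p = 0.000386). A window of 500 bp gave 30.6% at boundaries and 21.3% with several genes, and ends of protein-coding genes only gave 32.7% and 13.5%. Counting centres within 1000 bp as shared gave another peak at 23.3% of genes, a difference of -7.88 points from shared peaks (adjusted p = 9.55e-05 by the same exact test). By that rule no kidney-only site had a liver or heart peak centred within 1000 bp. For shared peaks such a neighbour still counted as another peak unless it overlapped by 1 bp. The difference thus follows at least in part from the setting, and no conclusion is drawn from it. Adding CACGTT raised the E-box share to 30.4%, and a distance of 50 kb raised the share with another peak to 56.7%.

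Counts of list genes moved most with the score and the window. With the higher-scoring part of every list the nephron, respiratory chain and translation lists had 1 gene each, mitochondrial ribosomal proteins and Rab genes 2, cytosolic ribosomal proteins and MAP kinase genes 3, Tmem genes 5, zinc finger genes 8 and solute carriers 11. Salt and water transport, proteasome and F-box genes had 0. With that of the kidney list only these counts were the same, except Tmem genes at 4, solute carriers at 10.0 and chaperones at 3. At 5 kb nephron markers had 9, kidney transcription factors 2, salt and water transport 6, cytosolic ribosomal proteins 10.0, F-box genes 9, Tmem genes 21.0, and solute carriers and zinc finger genes 36.0 each. With centres within 1000 bp counted as shared no clock gene was left (0), and without the heart list salt and water transport had 2. The cause of these shifts was not tested.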

Other observations

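The E-box was not the element most often present in the readable kidney-only boundary peaks. The GC-box core GGGCGG lay in 64.5% of the 392 sites, against 73.1% of the shared kidney boundary peaks, 58.8% of the liver-only and 66.2% of the heart-only boundary peaks, and 68.4% of promoter pieces of 188 bases with at least 60% G and C. CCGGAAG, the core bound by ETS factors, lay in 13.0% of the sites, 11.5% of the shared peaks, 7.52% of liver-only and 6.34% of heart-only boundary peaks, and 11% of the GC-rich pieces. CCAAT lay in 20.2% of the sites, 28.0% of the shared, 28.3% of the liver-only and 19.0% of the heart-only boundary peaks, 21.8% of the kidney-only peaks away from boundaries and 24.8% of the GC-rich pieces. TATAAA lay in 2.04% of the sites and 1.87% of the GC-rich pieces. The E-box variant CACGTT lay in 7.4% of the sites, 8.58% of the shared, 8.41% of the liver-only and 4.23% of the heart-only boundary peaks. All were sought on both strands, and none of these differences was tested. The length read was unlike. Its mean was 167 bases in the sites, 168 in shared, 191 in liver-only and 170 in heart-only boundary peaks, against 188 in the pieces.

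The base 5′ of CACGTG, read on both strands, was C at 35.0%, T at 29.1%, G at 22.7% and A at 13.3% of the copies in kidney-only sites. In shared kidney boundary peaks it was C at 24.0%, T at 36.5%, G at 25.7% and A at 13.9%. T was thus the most frequent base in shared peaks and C in kidney-only sites, and this was not tested.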
